A study of Canis lupus familiaris with 58 samples.

Results

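The 10 genes described here are used as markers of macrophages and were followed through 58 canine B-cell lymphomas. They comprise 7 receptor genes of the macrophage surface (CSF1R, CD14, CD163, MSR1, MRC1, MARCO and VSIG4) and the 3 genes that encode the chains of complement C1q (C1QA, C1QB and C1QC). The 10 symbols were a given list, not a choice by measured values. Where several probe sets carried the symbol alone, the one of highest mean stood for the gene, which gave 10 of 15115 genes on the array. Another 10 probe sets of 7 of these genes served as a check.

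Total RNA came from biopsies of pet dogs taken before treatment, 1 array per dog, so the spread between samples is the spread between dogs. Lymph node tissue was taken from 39 dogs, 32 with diffuse large B-cell lymphoma (DLBCL) and 7 with marginal zone lymphoma (MZL), and fine needle aspirates came from 19 dogs of unknown diagnosis. The labels class the immunoglobulin heavy chain variable gene (IGHV) as static (26 dogs), ongoing (27 dogs) or ND (5 dogs, a term the labels do not spell out). Static status was held by 18 DLBCL nodes, 1 MZL node and 7 aspirates, and ongoing status by 12 DLBCL nodes, 4 MZL nodes and 11 aspirates. Progression-free survival was given for 55 dogs with 47 events and overall survival for 56 dogs with 41 events, in a time unit that the labels do not name. No breed, age or treatment was used here, and no unaffected node was among the samples.

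Macrophages are tissue phagocytes that depend on the receptor CSF1R for survival, clear debris and modified lipoprotein through scavenger receptors, and are a main source of C1q. C1q is a hexamer of triplets of its A, B and C chains, and starts the classical complement pathway with the proteases C1R and C1S, under control of the inhibitor SERPING1. In lymph nodes such cells line the sinuses and take up dying lymphocytes inside follicles. C1QB, C1QC and C1QA are direct neighbours on one chromosome, in that order, in the RefSeq gene table of the assembly UU_Cfam_GSD_1.0.

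Levels are given on the log2 scale of the deposited values, where 1 unit is a doubling, and are compared only within a probe set. Array medians lay between 7.08 and 7.20, and the number of arrays limits the precision. Arrays of 3 dogs stood apart. The array of dog 12 (aspirate, ongoing) had the lowest mean correlation with the others, 0.941, and a 3' minus 5' difference of 1.41 between control probe sets, which rises as RNA degrades. The array of dog 42 (aspirate, static) had a mean correlation of 0.952, and that of dog 41 (lymph node DLBCL, static) a 3' minus 5' difference of 3.12, where the highest value on the remaining arrays was 0.54. The mean of 9 B-cell markers (such as MS4A1, CD79A and PAX5) ran from 8.92 to 10.94 across the 58 tumours, with no other tissue to compare it with. In bulk tissue, fewer macrophages and less RNA per macrophage cannot be told apart.

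The identity receptors also varied more than most genes, CSF1R more than 85.8% of all genes and CD14 more than 71.5%. CSF1R, the receptor for CSF1 and IL34, ran from 6.75 in dog 38 through a median of 7.58 to 9.25 in dog 22, with an SD of 0.49 over 58 dogs. CD14, the co-receptor that hands lipopolysaccharide to TLR4, ran from 7.66 in dog 38 through a median of 8.24 to 9.35 in dog 22, with an SD of 0.36. The same DLBCL node of static status was thus the highest for both receptors, and the same DLBCL node of ND status the lowest.

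Among the probe sets used for the scavenger receptors, that of MSR1 had the widest range. MSR1, a class A receptor for modified lipoprotein, ran from 4.38 in dog 50 through a median of 4.93 to 7.77 in dog 25, with an SD of 0.925. Its values were skewed: 46 dogs lay at or below 6 and 12 dogs above it, and the 4 highest were DLBCL nodes of dogs 25 and 17 (7.77 and 7.10), an aspirate of dog 51 (7.62) and an MZL node of dog 5 (7.35). MARCO, another class A receptor, found on sinus and marginal zone macrophages, ran from 5.68 through 6.42 to 7.94 (SD 0.52). Its 3 highest values all came from ongoing aspirates (dogs 12, 30 and 15 at 7.94, 7.81 and 7.54).

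MRC1, the mannose receptor, had 1 dog far above the others. It ran from 6.81 through a median of 7.30 to 9.68, and the highest value, in the static DLBCL node of dog 39, lay far above the next, 7.97 in dog 14. VSIG4, the complement receptor of resident tissue macrophages that binds C3 fragments, ran from 6.13 through 6.51 to 7.78 (SD 0.36). The 4 highest VSIG4 values belonged to static dogs (58, 19, 32 and 34), from 7.78 down to 7.26.

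CD163, the receptor for haemoglobin bound to haptoglobin, was the flattest of the 10, with values from 6.11 to 6.91 and an SD of 0.17, below the median SD of all genes, 0.249. That value belongs to the probe set and not to the gene. The CD163 probe set with the next highest mean (6.44 against 6.45) ran from 4.84 through a median of 6.33 to 8.69, with an SD of 1.03. The 3 CD163 probe sets not used correlated with each other at 0.87 to 0.92 over 58 dogs, and with the one used at 0.04 to 0.09. Correlations between genes or probe sets were all taken with the means of the groups (lymph node DLBCL, lymph node MZL, aspirate) removed. The scatter of CD163 probe sets against each other shows this split, so values of the used CD163 probe set are given here by the rule and the others stand beside them.

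**Figure D1:**
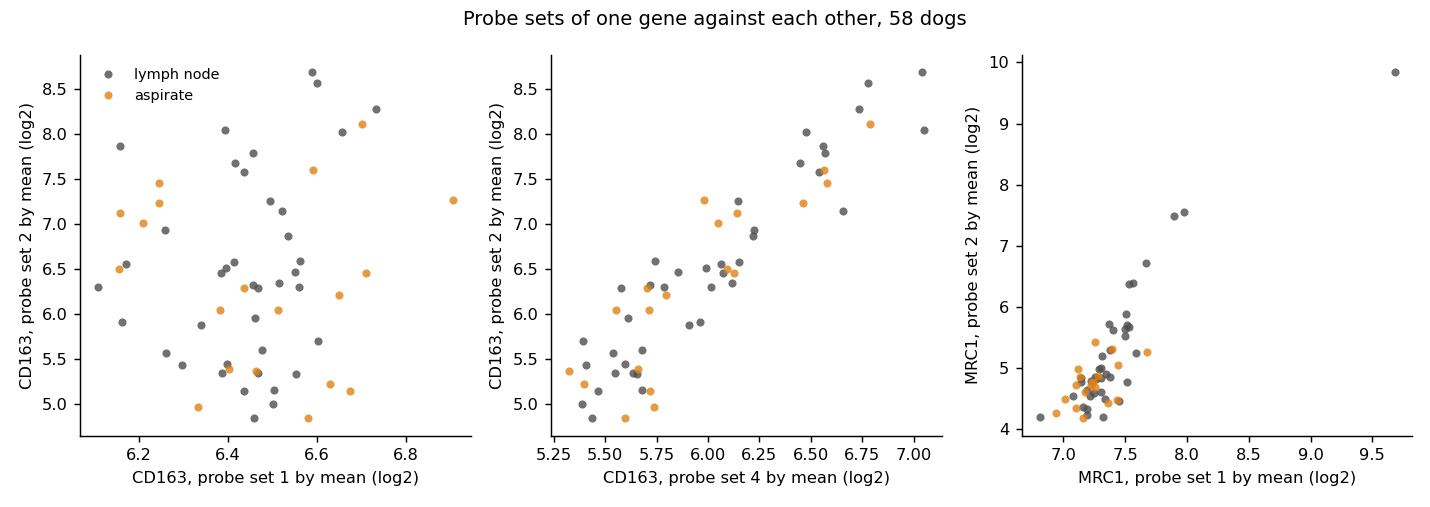
Probe sets of the same gene plotted against each other, 1 point per dog (58 dogs; grey lymph node, orange aspirate), both axes in log2 units. The CD163 probe set with the highest mean spans 6.11 to 6.91 with no relation to the second, whereas the second and the fourth rise together; for MRC1 dog 39 sits alone at 9.68 and 9.85.

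For the other genes the probe sets went together. The correlation between both probe sets was 0.98 for C1QC, 0.96 for C1QA, 0.89 for MARCO and 0.86 for CSF1R, and 0.51 for VSIG4, whose second probe set had an SD of 0.17. The 3 MRC1 probe sets correlated at 0.88 to 0.94 over all dogs. In aspirates, which do not include dog 39, the used MRC1 probe set correlated at 0.53 and 0.31 with the others. CD14, MSR1 and C1QB had 1 probe set each.

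The C1q chains varied more than most genes, and more than the identity receptors. C1QA ran from 10.29 in dog 6 through a median of 11.66 to 13.19 in dog 18, with an SD of 0.70. C1QB ran from 6.51 in dog 42 through 8.52 to 11.12 in dog 25 (SD 0.96), and C1QC from 8.22 in dog 42 through 10.40 to 12.44 in dog 22 (SD 0.88). C1QB varied more than 98.0% of all genes, MSR1 more than 97.8% and C1QC more than 97.4%. The 4 highest C1QA values (dogs 18, 19, 17 and 22) were all static DLBCL nodes, while the lowest C1QB and C1QC values were those of dog 42, 1 of the arrays that stood apart.

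No dog was high for all 10 genes. By mean rank over the genes, taken with group means removed, dog 22 (static DLBCL node) stood highest and was among the 6 highest dogs for 7 genes, followed by dog 19 with 5, dog 33 (ongoing aspirate) with 5 and dog 18 with 4. At the other end were dog 50 (ongoing DLBCL node), among the 6 lowest dogs for 5 genes, dog 29 (static aspirate) with 4 and dog 6 (static DLBCL node) with 3. High and low dogs thus came from both statuses and both specimens.

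How the genes varied with each other was asked with group means removed, over 45 pairs, with permutation within group (100000 draws, two-sided) and Benjamini-Hochberg adjustment over the 45 pairs. C1QB and C1QC were the closest pair, at Pearson's r = 0.88 and Spearman's rho = 0.85 (n = 58, permutation p = 1e-05, the smallest these permutations can give, adjusted 7.5e-05). That r was 0.82 in the 39 lymph nodes, 0.94 in the 19 aspirates and 0.85 without the 2 dogs farthest from the median of C1QB. The third chain went less closely with them: r was 0.63 between C1QA and C1QC (rho 0.54, permutation p = 1e-05, adjusted 7.5e-05) and 0.43 between C1QA and C1QB (rho 0.41, permutation p = 6e-04, adjusted 0.0027). Without the 2 farthest dogs these were 0.59 and 0.43.

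CSF1R and CD14 varied with each other and with C1QB and C1QC. CD14 and CSF1R had r = 0.70 and rho = 0.64 (0.60 without the 2 farthest dogs; 0.69 in lymph nodes and 0.70 in aspirates). With C1QC, r was 0.65 for CSF1R and 0.64 for CD14, and with C1QB 0.66 and 0.50. Each of these 5 relations had an adjusted permutation p of 6.4e-04 or less for r. CSF1R with C1QA was weaker, at r = 0.18 and rho = 0.10 (permutation p = 0.18, adjusted 0.385). CD14 with C1QA had r = 0.45 and rho = 0.36 (permutation p = 5.9e-04, adjusted 0.0027; 0.36 without the 2 farthest dogs). MSR1 varied with all 3 C1q chains. With C1QA it had r = 0.45 and rho = 0.43 (permutation p = 3.4e-04, adjusted 0.0019; 0.42 in lymph nodes, 0.52 in aspirates, 0.42 without the 2 farthest dogs), with C1QC r = 0.40 and rho = 0.30 (adjusted permutation p = 0.00585 and 0.0677), and with C1QB r = 0.35 and rho = 0.23 (adjusted permutation p = 0.0235 and 0.192). With CD14, MSR1 had r = 0.03 (permutation p = 0.82).

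For the remaining scavenger receptors, on the probe sets used, no relation to a C1q chain passed adjustment. MRC1 had r between -0.10 and -0.01 with the 3 C1q chains. Its relation to VSIG4 rested on how dog 39 was weighed: r was 0.16 over all dogs (permutation p = 0.215, adjusted 0.44), rho was 0.39 (permutation p = 0.0028, adjusted 0.0116), and r without the 2 farthest dogs was 0.52. VSIG4 had r = 0.30 with C1QA (adjusted permutation p = 0.071) and 0.09 with C1QB. With C1QC it had 0.21, which was 0.38 in lymph nodes and -0.09 in aspirates. MARCO had r = 0.30 with C1QC (adjusted permutation p = 0.13), which was 0.40 in lymph nodes and 0.20 in aspirates. With C1QA and C1QB, MARCO had 0.15 and 0.12. The used CD163 probe set had r = 0.40 with MARCO (rho 0.32, permutation p = 0.0056, adjusted 0.0209; 0.30 without the 2 farthest dogs). CD163 with MRC1 had r = 0.08 and rho = 0.46 (permutation p of rho = 2.3e-04, adjusted 0.0013). In lymph nodes its r was -0.10, and 0.41 without dog 39, and in aspirates 0.73, and 0.62 without dog 12, the aspirate with the highest CD163 value. The difference between specimens was not tested. Over the 45 pairs the median r was 0.155, 38 pairs were above 0, and 13 had an adjusted p of r under 0.05.

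The other 3 CD163 probe sets placed this gene nearer to VSIG4, C1QC, CD14 and CSF1R. As a description, with no test, their r with VSIG4 was 0.64 to 0.68, with C1QC 0.40 to 0.50, with CD14 0.34 to 0.47 and with CSF1R 0.31 to 0.35, where the used probe set had 0.23, -0.03, 0.08 and 0.03. With MARCO they had 0.09 to 0.19, where the used probe set had 0.40. With MRC1 they had 0.13 to 0.16 over all dogs and -0.22 to -0.14 in aspirates. The used probe set had 0.08 and 0.73 there, so its relations to MARCO and MRC1 were not seen on the others.

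**Figure D2:**
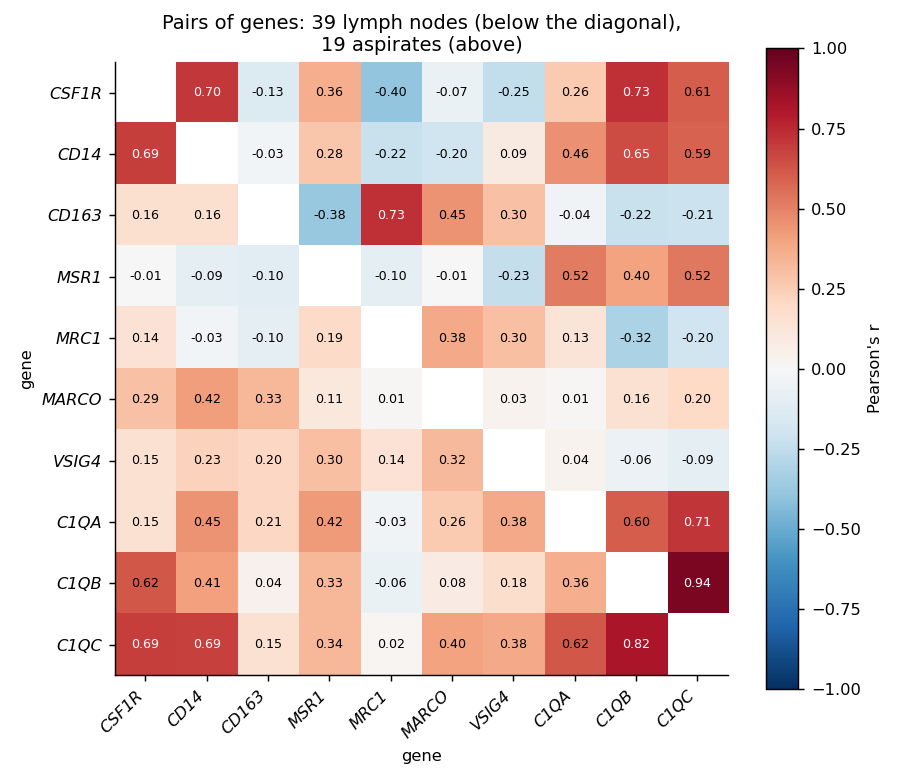
Pearson's r for each pair of the 10 genes after removing group means, with 39 lymph nodes below the diagonal and 19 aspirates above it; red is positive and blue negative. CSF1R, CD14, C1QB and C1QC are mutually positive in both specimens (0.41 to 0.94), and CD163 with MRC1 has 0.73 in aspirates and -0.10 in lymph nodes, which is 0.41 without dog 39. These CD163 values are those of the used probe set. The others had -0.22 to -0.14 with MRC1 in aspirates.

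The partners of these proteins were read the same way, as 13 pairs with adjustment over those 13. C1QC varied with SERPING1 (r = 0.68, rho 0.59), C1R (r = 0.60, rho 0.56) and C1S (r = 0.52, rho 0.50), each with an adjusted permutation p of r of 2.9e-04 or less. Without the 2 farthest dogs these were 0.63, 0.52 and 0.45. C1QB had r of 0.58, 0.43 and 0.37 with the same 3 genes (rho 0.48, 0.37 and 0.31), each with an adjusted permutation p of r of 0.0149 or less. C1QA had 0.23, 0.32 and 0.17 (rho 0.09, 0.25 and 0.09), with adjusted permutation p of r of 0.0988, 0.0182 and 0.197. In all, 9 of the 13 pairs had an adjusted p of r under 0.05. Of these, C1QA with C1R and CSF1R with IL34 did not pass by rho (adjusted permutation p = 0.103 and 0.167). The 3 values of C1QC were larger in aspirates (0.82, 0.75 and 0.66) than in lymph nodes (0.57, 0.46 and 0.40), a difference that was not tested. For CSF1R, r was 0.37 with its ligand IL34 (permutation p = 0.0057, adjusted 0.0124) and 0.29 without the 2 farthest dogs, with rho at 0.21. The r of CSF1R with CSF1 was 0.19 (adjusted permutation p = 0.197). For CD14, r was 0.32 with LY96, which binds lipopolysaccharide beside TLR4 (rho 0.31, permutation p = 0.0187, adjusted 0.027), and 0.17 with TLR4 itself (adjusted permutation p = 0.232).

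Across the other 15105 genes, likeness was measured as the mean r with the 10 genes over 58 dogs. CD68, a lysosomal glycoprotein of macrophages, came closest at 0.42, followed by the endocytic adaptor DAB2 (0.41), the macrophage calcium-binding protein AIF1 (0.41), NPL and TSPAN13 (both 0.41). FXYD6, the apolipoprotein APOC1, ABCA8, the inhibitory collagen receptor LAIR1 and the lysosomal protease CTSD (0.38) completed the 10 nearest. The median of that mean over other genes was 0.0081 and its 95th percentile 0.166. These 10 were picked by the correlation itself, so it is a description.

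Each gene also had its own nearest neighbour. AIF1 was nearest to C1QA (r = 0.67) and, outside the list, to C1QC (0.82), and PLD3, a lysosomal nuclease, to C1QB (0.81). EBI3 was nearest to CD14 (0.87), and PLXND1, SDC4 and the cytokine IL18 to CSF1R (0.84, 0.83 and 0.82). VSIG4 had F13A1, the A chain of coagulation factor XIII (0.76), and the scavenger receptor CD36 (0.74) as its nearest. The nearest genes of MSR1, MRC1 and MARCO were more distant, at 0.59 (RSPH3), 0.53 (LRIG1) and 0.59 (CCDC3). The used CD163 probe set had TSC1 (0.76), KLHL3 and USP40 as its nearest.

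Marker lists gave the same grouping. Each list was scored per dog as the mean over its genes of the level with group means removed, divided by the SD of the gene. The score of 23 other macrophage and monocyte genes had r = 0.79 with C1QC, 0.77 with CD14, 0.74 with CSF1R and 0.70 with C1QB. It had 0.44 with C1QA, 0.28 with MSR1, 0.23 with MARCO and 0.21 with VSIG4. With the used CD163 probe set it had 0.05, and with MRC1 0.02. CSF1R also had r = 0.76 with the score of 9 cytotoxic cell markers (rho 0.69, with r of 0.73 in lymph nodes and 0.81 in aspirates). Without the 2 dogs farthest from the median of that score, r was 0.67. With those markers C1QB had 0.56, CD14 0.55 and C1QC 0.50, and the other 6 genes had between -0.11 and 0.09. CD14 had r = 0.69 with 20 complement genes and 0.51 with 10 endothelial markers. With 10 fibroblast and matrix markers, CD14 had r = 0.47 and VSIG4 0.44, the latter 0.62 in lymph nodes and -0.05 in aspirates. With the B-cell markers VSIG4 had r = -0.44 (rho -0.50), CD163 -0.34 (rho -0.33) and MRC1 -0.18 (rho -0.56). The highest r with the B-cell markers was 0.25, for C1QB. What these lists contributed to the levels of the 10 genes was not tested.

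Static and ongoing tumours were compared because B cells of the germinal centre keep mutating IGHV. VSIG4, MSR1 and MRC1 had the largest differences relative to their errors, all with higher means in static dogs, and none passed adjustment. In the limma fit with group as covariate, 0 of 10 genes had an adjusted p under 0.05, as did 0 of all 15115 genes (0%). At an unadjusted p under 0.05 it was 1 of 10, VSIG4, where 7.13% of all genes were. Of the 10 estimates, 7 were higher in static dogs, with a median of 0.10 (log2), while 47.2% of all genes were higher with a median of -0.0047.

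The 26 static dogs had a VSIG4 level of 6.70 ± 0.46 (SD) and the 27 ongoing dogs one of 6.47 ± 0.21, with ranges of 6.14 to 7.78 and 6.13 to 6.89. The groups overlapped below and parted above: 8 static dogs exceeded the highest ongoing dog. The difference was 0.26 ± 0.095 (log2, SE), or 1.20-fold, with limma's adjusted p = 0.670. The second VSIG4 probe set, which varied little, gave 0.06 ± 0.05.

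MSR1 had a static median of 5.26 (4.45 to 7.77) and an ongoing median of 4.75 (4.38 to 7.62), and a difference of 0.48 ± 0.26 (limma adjusted p = 0.719). Its ranges overlapped almost fully, with 1 static dog above and 2 ongoing dogs below the other group. MRC1 had medians of 7.33 and 7.24 and a difference of 0.18 ± 0.11 (limma adjusted p = 0.726), which was 0.11 without dog 39. The MRC1 probe sets not used, which varied more (SD 0.97 and 0.81), gave 0.50 ± 0.26 and 0.46 ± 0.23 with dog 39 kept. In the limma fit over all single-symbol probe sets, their adjusted p was 0.683 and 0.672. MARCO was lower in static dogs by an estimate of -0.19 ± 0.15, with 4 ongoing dogs above the highest static dog.

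For the identity receptors and C1q each estimate was smaller than its error. The differences were 0.08 ± 0.14 for CSF1R, 0.05 ± 0.11 for CD14, 0.14 ± 0.20 for C1QA, 0.11 ± 0.28 for C1QB and -0.01 ± 0.26 for C1QC. The 95% intervals of the C1q chains still held differences of up to 0.54, 0.67 and 0.51 upward. C1QB had a wider spread in static (SD 1.15) than in ongoing dogs (SD 0.81), as had C1QC (1.10 and 0.68), a difference in spread that was not tested.

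The used CD163 probe set gave -0.01 ± 0.05, and the other 3 gave 0.52 ± 0.29, 0.21 ± 0.10 and 0.32 ± 0.12, all higher in static dogs. In the limma fit over all 29254 single-symbol probe sets their adjusted p ran from 0.656 to 0.691, and 0 probe sets passed. On the second CD163 probe set static dogs had 6.79 ± 1.15 and ongoing dogs 6.23 ± 0.88, with ranges of 4.99 to 8.69 and 4.84 to 8.02.

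**Figure D3:**
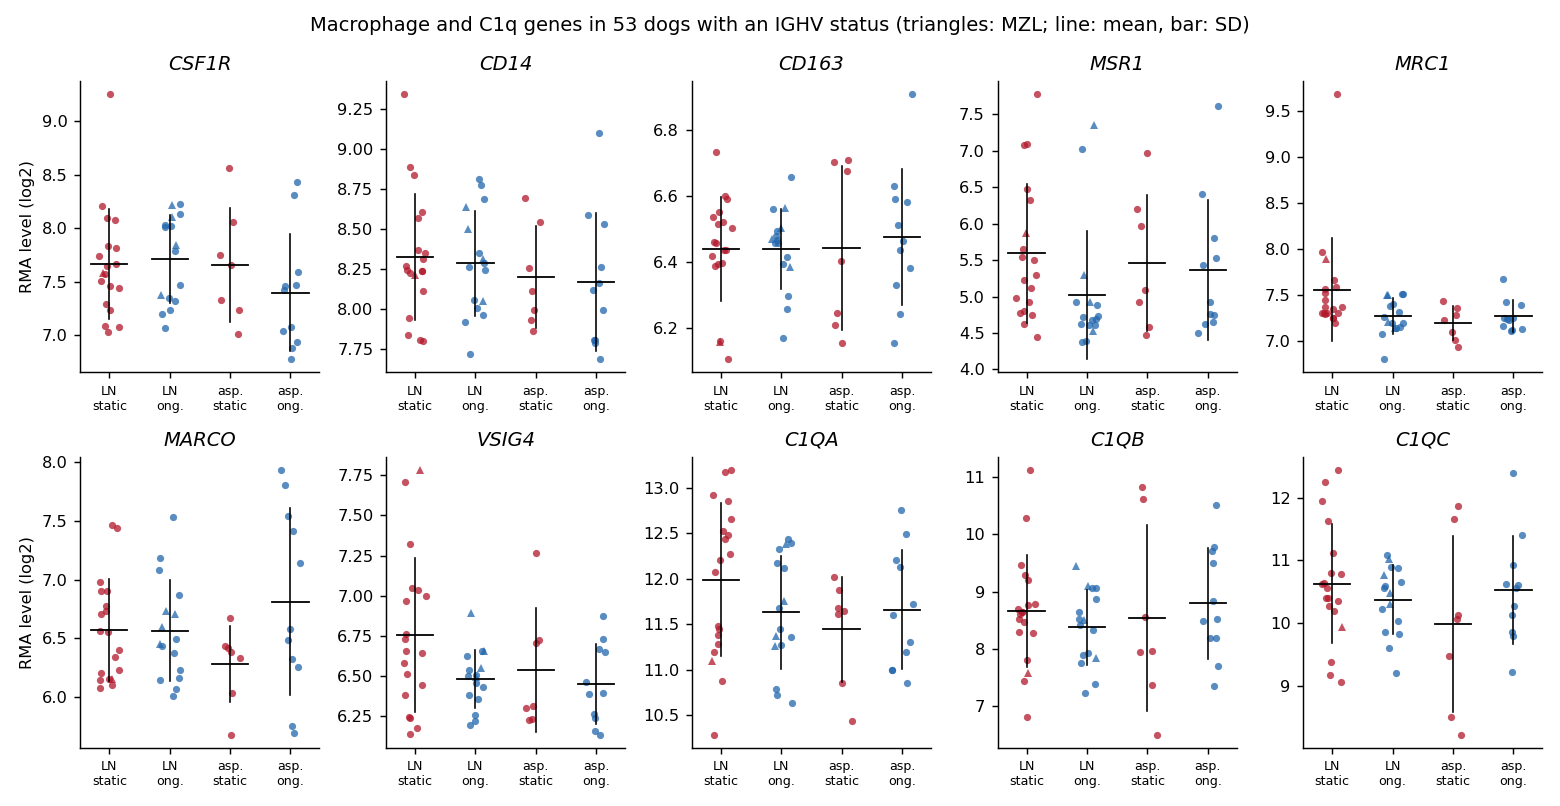
RMA level (log2, vertical axis) of each gene in the 53 dogs with an IGHV status, split by specimen (LN lymph node, asp. aspirate) and status (red static, blue ongoing, ong.); triangles are MZL nodes, horizontal lines means and vertical bars 1 SD. The highest VSIG4 values, up to 7.78, are static lymph nodes, MRC1 has 1 dog at 9.68, and the highest MARCO values, up to 7.94, are ongoing aspirates.

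The status difference was also estimated within each specimen. In lymph nodes alone (19 static, 16 ongoing) the estimates were 0.68 for MSR1, 0.36 for VSIG4, 0.32 for MRC1 and 0.27 to 0.33 for the C1q chains. Without dog 39, MRC1 was at 0.21 in lymph nodes. In aspirates alone (7 static, 11 ongoing) they were 0.09, 0.09 and -0.07, and -0.21 to -0.54 for C1q, with MARCO at -0.53. The test of the difference itself found none of the 10 past adjustment: the interaction was negative for 9 of 10 genes, with a median of -0.46 (all genes -0.0062), and the lowest limma adjusted p was 0.585, for MRC1. Over all genes 0.0132% passed this interaction test and 9.10% had an unadjusted p under 0.05, against 0 of the 10. Without dog 39 the interaction of MRC1 went from -0.39 to -0.28, with an unadjusted p under 0.05 (limma adjusted p = 0.422). The shares over all genes given here are those with dog 39 kept.

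C1QC had the largest interaction, -0.81 ± 0.53 (limma adjusted p = 0.664), and dog 42 with dog 12 carried much of it: without these 2 arrays it was -0.43, and that of C1QB moved from -0.57 to -0.14. MARCO in aspirates ran from 5.68 through 6.38 to 6.67 in static dogs and from 5.69 through 6.58 to 7.94 in ongoing dogs, 5 of which lay above every static aspirate. Its interaction was -0.53 ± 0.31, and -0.44 without those arrays.

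None of the 10 genes differed between aspirates and lymph nodes past adjustment. In aspirates 4 estimates were higher and 6 lower, with a median of -0.10 (all genes -0.0063, 46.9% higher). MRC1 was 7.24 ± 0.17 (SD, n = 19) in aspirates and 7.42 ± 0.43 (n = 39) in nodes, a difference of -0.19 ± 0.10 (limma adjusted p = 0.476), and -0.13 without dog 39. The MRC1 probe sets not used gave -0.55 and -0.38 with dog 39 kept (limma adjusted p over probe sets = 0.349 and 0.478). C1QB was 8.73 ± 1.20 and 8.49 ± 0.83, a difference of 0.24 ± 0.26. None of the 10 passed, with 0.119% of all genes passing, and 0 of 10 had an unadjusted p under 0.05 where 11.8% of all genes did. It was 1 of 10 without dog 39 (MRC1), with the most variable probe set and by the rank-sum test. The same count held without the 2 least correlated arrays or those of high 3' minus 5' difference. Shares over all genes in these settings are not given here.

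Beside these, the interval for CD14 ran from -0.32 to 0.09 and that for C1QC from -0.58 to 0.39. Among markers of other cell types, all 13 T-cell markers and all 9 cytotoxic markers had higher means in aspirates, with median differences of 0.26 and 0.45, while 6 of 10 fibroblast and matrix markers (median 0.03) and 1 of 8 dendritic cell markers (median -0.06) had. So had 9 of 10 endothelial markers (median 0.10), 8 of 9 B-cell markers (0.13), 5 of 8 granulocyte markers (0.13) and 3 of 5 erythroid markers (0.06). Of the T-cell markers 0 passed. The T-cell mean ran from 7.72 to 9.63 in aspirates and from 7.50 to 9.33 in nodes. The markers that passed were NCR3 of the cytotoxic list (0.23 ± 0.05, limma adjusted p = 0.044) and ALAS2 of the erythroid list (0.61 ± 0.12, limma adjusted p = 0.013), both higher in aspirates. Their part in the levels of the 10 genes was not tested.

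Diagnosis was compared in lymph nodes only. MZL and DLBCL nodes had overlapping ranges for all 10 genes, with 5 estimates higher and 5 lower in MZL and a median of -0.0089 (all genes -0.0070). MSR1 had a median of 5.30 (4.53 to 7.35) in 7 MZL nodes and 4.91 (4.38 to 7.77) in 32 DLBCL nodes, a difference of 0.39 ± 0.38. C1QA had medians of 11.37 (11.09 to 12.38) and 11.87 (10.29 to 13.19), a difference of -0.27 ± 0.30. The 4 highest C1QA dogs were DLBCL nodes, above every MZL node.

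By limma all 10 genes had an adjusted p of 1.00 for diagnosis, 0% of all genes passed and 1.16% had an unadjusted p under 0.05, against 0 of the 10. IGHV status was not in this fit. It differed between the diagnoses, with 18 static and 12 ongoing DLBCL nodes against 1 static and 4 ongoing MZL nodes. With IGHV status as covariate 7 of 10 estimates were higher in MZL, and none passed adjustment. The 7 MZL nodes leave wide intervals, from -0.38 to 1.17 for MSR1 and from -0.88 to 0.35 for C1QA. The second CD163 probe set was lower in MZL by an estimate of -0.48, where the used one gave -0.02.

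**Figure D4:**
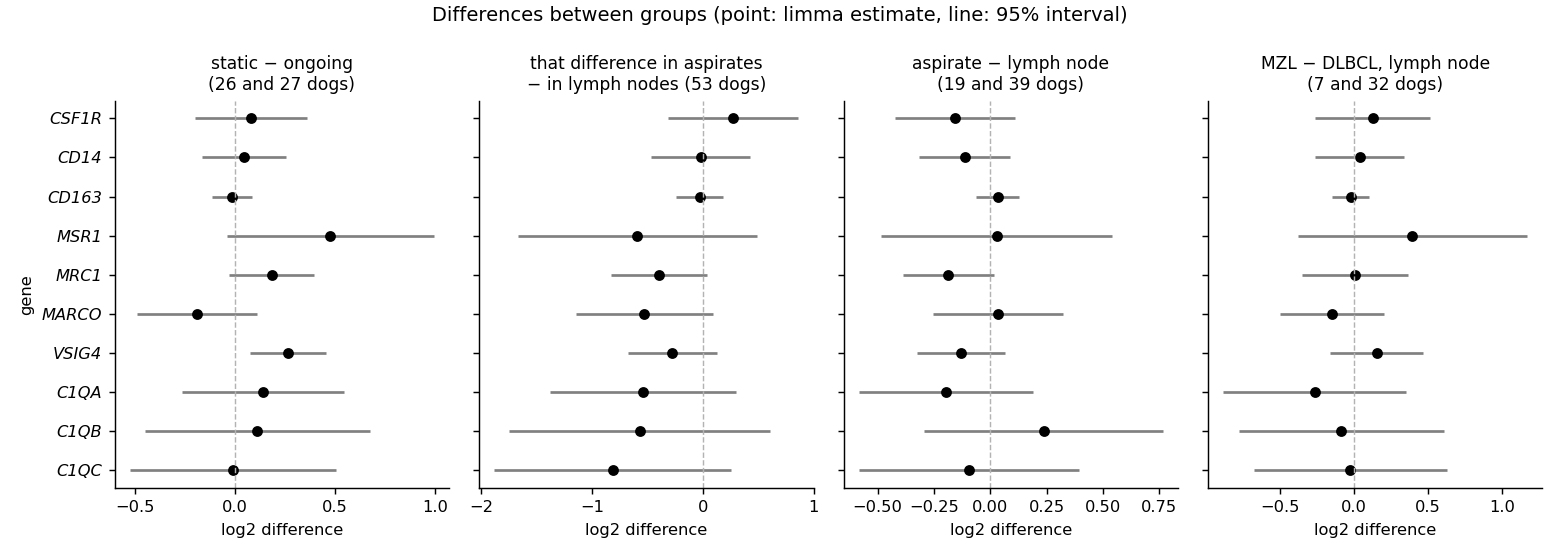
Estimated log2 differences (points) with 95% intervals (lines) from limma for the 10 genes in 4 comparisons: static minus ongoing, that difference in aspirates minus that in lymph nodes, aspirate minus lymph node, and MZL minus DLBCL; each panel has its own horizontal scale. Only the VSIG4 interval for static minus ongoing (0.07 to 0.46) leaves out 0, before adjustment over genes.

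Outcome was read with a Cox model stratified by specimen, as the hazard ratio per log2 unit of level. MSR1 was the gene whose intervals left out 1 for both outcomes: 1.43 (95% interval 1.06 to 1.93) for progression and 1.47 (1.07 to 2.03) for death. Its unadjusted score-test p-values were 0.018 and 0.0163, and both adjusted values were 1.00 to 3 digits. One of 10 genes thus had an unadjusted p under 0.05 for each outcome, where 2.83% of all genes had for progression and 3.99% for death, and none passed adjustment, with 0% and 0.00662% of all genes passing.

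Dogs were also split at the median level of their own specimen, and both specimens were then pooled. Dogs with high MSR1 had a median overall survival time of 252 and dogs with low MSR1 one of 569, and for progression 193 and 309. The MSR1 median over all dogs of a specimen was 4.93 in lymph nodes and in aspirates, among its low values. VSIG4, C1QB and C1QC each had medians of 252 (high) and 505 (low) for overall survival. The order was the other way for CD163 (505 and 211), MARCO (470 and 259) and C1QA (367 and 240). These splits were not tested.

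The estimates of MSR1 were higher in aspirates than in lymph nodes. For death it was 2.50 (1.33 to 4.70) in aspirates and 1.23 (0.84 to 1.80) in nodes, and for progression 2.12 (1.19 to 3.78) and 1.25 (0.87 to 1.78). That difference between specimens was not tested.

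The other receptors had wider intervals. VSIG4 had a hazard ratio of 2.21 (0.97 to 5.03) for progression and 1.30 (0.53 to 3.20) for death, and CD14 had 2.00 (0.76 to 5.24) and 2.09 (0.74 to 5.89). CSF1R had 1.35 (0.71 to 2.59) and 1.53 (0.73 to 3.23), and MRC1 1.34 and 1.37. MARCO lay at 0.96 (0.54 to 1.68) and 0.97 (0.53 to 1.77). The used CD163 probe set had 0.50 (0.087 to 2.91) and 0.28 (0.045 to 1.71), and its second probe set 1.26 (0.94 to 1.67) and 1.10 (0.81 to 1.50), on the other side of 1. The used CD163 probe set spanned only 0.80 log2 units over all dogs, less than the unit of its hazard ratio. The second VSIG4 probe set had 1.39 (0.22 to 8.72) for progression and 0.73 (0.11 to 5.05) for death.

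The C1q chains were above 1 for both outcomes with intervals that held 1. C1QC had 1.33 (0.90 to 1.97) for progression and 1.36 (0.90 to 2.06) for death, C1QB 1.16 (0.81 to 1.66) and 1.27 (0.87 to 1.86), and C1QA 1.20 (0.78 to 1.85) and 1.04 (0.66 to 1.64). In all, 8 of 10 genes had a hazard ratio above 1 for each outcome, where 50.4% of all genes had for progression and 46.8% for death.

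**Figure D5:**
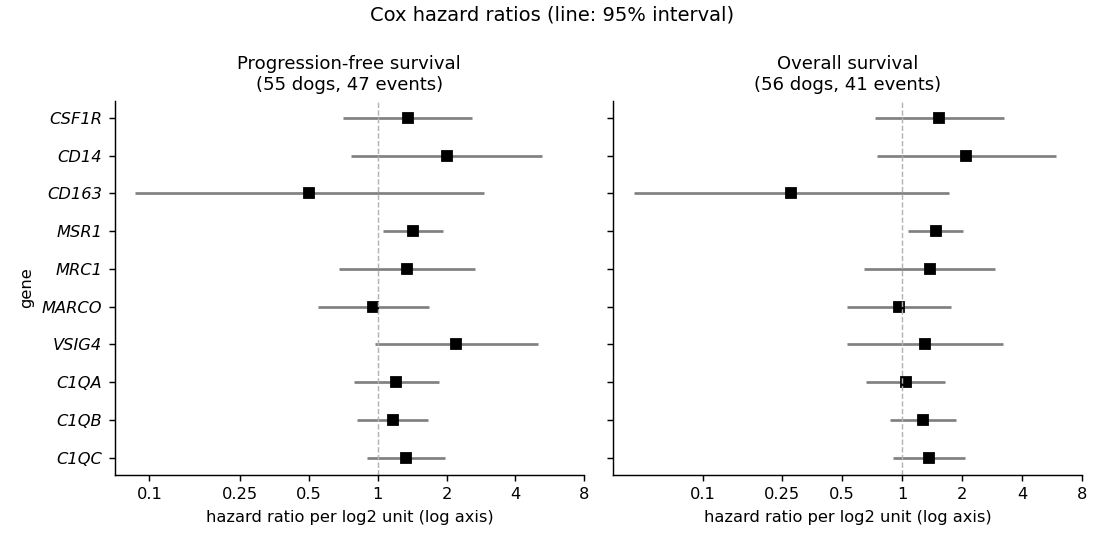
Hazard ratio per log2 unit (squares, log axis) with 95% interval (lines) for progression-free survival (55 dogs, 47 events) and overall survival (56 dogs, 41 events), stratified by specimen. The intervals of MSR1 (1.06 to 1.93 and 1.07 to 2.03) leave out 1 before adjustment over genes; those of the other 9 genes include it.

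The partners of these proteins gave no call either. None of CSF1, IL34, TLR4, LY96, C1R, C1S and SERPING1 passed adjustment in any of the 6 comparisons. Between specimens C1R, C1S and SERPING1 had higher means in aspirates by 0.57 ± 0.23, 0.61 ± 0.25 and 0.53 ± 0.27 (limma adjusted p = 0.308, 0.312 and 0.448). For IGHV status, C1R, C1S and SERPING1 were at -0.24 ± 0.24, -0.22 ± 0.26 and -0.07 ± 0.29. Their interactions of status with specimen were -0.72 ± 0.51, -0.93 ± 0.54 and -0.63 ± 0.60 (limma adjusted p = 0.702, 0.610 and 0.809).

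Of 23 measured macrophage and monocyte genes, 0 passed in any comparison. For IGHV status 15 of them were higher and 8 lower in static dogs (median 0.04), with HMOX1, which degrades haem, at 0.24 ± 0.13, CD5L, a scavenger protein secreted by macrophages, at 0.61 ± 0.39, and the myeloid transcription factor SPI1 at -0.38 ± 0.25. In aspirates FCER1G, SPI1 and LYVE1 had higher means by 0.50 ± 0.19, 0.59 ± 0.24 and 0.15 ± 0.07 (limma adjusted p = 0.267, 0.310 and 0.363). For overall survival, TYROBP, a signalling adaptor of myeloid receptors, had a hazard ratio of 1.50 (1.05 to 2.13), and for progression HMOX1 had 2.24 (1.08 to 4.66), with adjusted p of 1.00 for both.

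Of 21 other scavenger and phagocytic receptors 0 passed. CD36, a scavenger receptor for lipids, had the smallest p of the list for IGHV status, with 0.57 ± 0.17 higher means in static dogs (limma adjusted p = 0.670). For progression LGALS3, a galectin of macrophages, had a hazard ratio of 1.70 (1.24 to 2.33), and CD36 1.73 (1.06 to 2.80). Of 20 complement genes 0 passed, with 17 lower in static dogs (median -0.07) and 16 higher in aspirates (median 0.07, C3 at 0.83 ± 0.31, limma adjusted p = 0.243). Of 9 genes of CSF1R ligands and signalling 0 passed, with GRB2 at -0.22 ± 0.10 for IGHV status, and of 9 genes around CD14 and haem handling 0 passed, with the lipoprotein receptor TLR2 at 0.22 ± 0.11.

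Markers of the other cell types in these tumours were read the same way. For IGHV status none of the members of the 8 lists passed adjustment. Lower means in static dogs were seen in 11 of 13 T-cell markers (median -0.12), 8 of 9 B-cell markers (median -0.16), 7 of 8 granulocyte markers (median -0.15), 8 of 10 endothelial markers (median -0.05), 6 of 10 fibroblast and matrix markers (median -0.05) and all 5 erythroid markers (median -0.06). Higher means were seen in 5 of 8 dendritic cell markers (median 0.01) and 5 of 9 cytotoxic markers (median 0.02). The mean of the T-cell markers ran from 7.98 to 9.10 in static and from 7.50 to 9.63 in ongoing dogs. That of the B-cell markers ran from 8.92 to 10.77 and from 9.15 to 10.94. Their part in the differences of VSIG4, MSR1 and MRC1 was not tested.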

How the data were processed

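The deposited table holds log2 levels for 43035 probe sets of 58 canine GeneChips. The authors made it in Affymetrix Expression Console by RMA (background correction, normalization between arrays and summary over probes), per the submitters' processing notes. The log2 scale was read from the values, which run from 2.82 to 15.11. Tool versions, scan dates and the array's genome build are not given in the sources used here. RNA was extracted with Trizol and labelled with biotin, per the labels' protocols.

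A platform annotation gave 29254 probe sets 1 symbol and 439 several, and only the former were used, with 1 probe set per gene (that of the highest mean). No symbol changed on update through Entrez identifiers. Models were fitted over all 15115 genes with limma 3.58.1 in R 4.3.3 (two-sided, Benjamini-Hochberg, threshold 0.05): IGHV status with the group (lymph node DLBCL, lymph node MZL, aspirate) as covariate in 53 dogs, its interaction with specimen, specimen in 58 dogs and diagnosis in 39 nodes. Outcome used a Cox score test stratified by specimen, and its hazard ratios came from coxph (survival 3.8.3), taking an indicator of 1 for an event. Intervals are 95% intervals without adjustment. Correlations used permutation within group in Python 3.11.15 with numpy 2.4.6, and plots matplotlib 3.10.9. The scripts were tested on simulated data.

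The 10 genes, the 13 other lists (5 of related genes, 8 of cell type markers) and the partner genes were chosen with earlier results of these data known. Text names all 10 genes and the partners, and from each list members past the threshold or up to 3 with the smallest p. Genes by likeness are the 10 with the highest mean correlation, without LOC symbols, and the nearest of each gene. Alternatives were the mean over probe sets, centred arrays, a filter on dim genes, leaving out arrays, a rank-sum test, single specimens and other covariates. Use of the most variable probe set, every other probe set and leaving out dog 39 (or, for 1 pair, dog 12) were added after seeing the data. No replicate number was shared between groups.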

Additional observations from a re-analysis of the deposited data

Results flagged for a closer look

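VSIG4 in the 7 MZL lymph nodes had 1 sample far from the others: dog 58 (static) had a level of 7.78 and the nearest node 6.89, a gap of 0.58 of the group's range, past Dixon's 95% critical value. Chance flags about 1 in 20 such groups, and 20 groups were tested here with 1 flag. Dog 58 was also the only static dog among the MZL nodes and had the third highest MRC1 value of all dogs, 7.89, next to the lowest C1QA, C1QB and C1QC values of the MZL nodes (11.09, 7.57 and 9.94).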

How the results depend on the processing

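None of the 10 genes passed adjustment in any comparison under any of the alternatives, where the lowest adjusted p was 0.329. Of 687 values computed under alternatives, 613 kept their direction or size. The values that changed sign follow, and the cause was not tested. They are given as log2 differences or, for outcome, log hazards per log2 unit. With the mean of probe sets, CD163 was 0.26 and C1QC 0.044 for IGHV status, CD163 -0.059 for specimen, CD163 0.46 and MARCO 0.010 for progression, and CD163 0.17 for death. With the most variable probe set CD163 was 0.52 for IGHV status, -0.16 for specimen, 0.23 for progression and 0.095 for death. Without the 2 least correlated arrays C1QC was 0.14 for IGHV status, CD14 0.014 for the interaction, CD163 -0.0061 and MARCO -0.038 for specimen, and MARCO 0.0020 for progression and 0.13 for death. Without the arrays of high 3' minus 5' difference C1QC was 0.019 for IGHV status, CD163 0.019 for the interaction, and MARCO -0.038 for specimen and 0.13 for death. In aspirates alone MRC1 was -0.075, C1QA -0.21 and C1QB -0.26 for IGHV status, MRC1 -0.71 for progression, and MRC1 -0.63 and VSIG4 -0.29 for death. In lymph nodes alone CSF1R was -0.016 and C1QC 0.27 for IGHV status, and MARCO 0.25 for progression and 0.26 for death. In lymph nodes without dog 39, CD163 was 0.0099, CSF1R -0.024, MARCO 0.014 and C1QC 0.29 for IGHV status. In DLBCL nodes alone CD163 was 0.030, MARCO 0.046 and C1QC 0.38 for IGHV status, CD163 0.57 and MARCO 0.37 for progression, and MARCO 0.15 for death. Without the group covariate C1QC was 0.020 for IGHV status. By differences of medians in the rank-sum test CD14 was -0.023 and CSF1R -0.014 for IGHV status, MARCO -0.015 for specimen, and CD163 0.011 and MARCO 0.037 for diagnosis. With IGHV status as covariate MARCO was -0.014 for specimen and C1QB 0.11 and C1QC 0.21 for diagnosis; for outcome MARCO was 0.13 for progression and 0.023 for death, and C1QA -0.0011 for death.

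Counts over all genes moved more. For specimen, 18 genes passed in the main analysis, 58 with the mean of probe sets, 107 with the most variable probe set, 41 with centred arrays, 10 without the 2 least correlated arrays, 10 without the arrays of high 3' minus 5' difference, 6 with genes above the median level, 6 with DLBCL nodes only and 0 by the rank-sum test. For IGHV status 6 passed in aspirates alone and 0 in the main analysis. For the interaction 2 passed, and 1 with centred arrays, without the 2 least correlated arrays or without those of high 3' minus 5' difference. For progression 0 passed, and 1 with the mean of probe sets or in lymph nodes alone. For death 1 passed, 2 with the mean of probe sets, with the most variable probe set or in DLBCL nodes alone, 3 in lymph nodes alone, and 0 in aspirates alone, with genes above the median level, without strata or with IGHV status added. Most of the 10 genes lie below the median level of all genes, and the filter on level left 4 of them (CD14, C1QA, C1QB and C1QC). The median r of the 45 pairs was 0.206 in lymph nodes, 0.125 in aspirates and 0.147 without the 2 least correlated arrays. No paired analysis was possible because each dog gave 1 sample.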
